A study of Mus musculus with 3 samples.

Results

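Axon guidance genes encode the secreted and membrane-bound cues, and their receptors, that steer growing axons and migrating cells. The semaphorins, plexins, neuropilins, Slits, Robo, Unc5, Dcc and Eph receptors, ephrins and netrins 1 to 4 were taken by gene symbol from the deposited gene list, without use of any measured value. The symbol rule found 70 of 27998 genes. They comprised 7 class 3 semaphorins, 13 semaphorins of classes 4 to 7, 9 plexins, 2 neuropilins, 4 Robo and 4 Unc5 receptors, Dcc, 9 EphA and 5 EphB receptors, 5 ephrin-A and 3 ephrin-B ligands, 3 Slits and 2 netrins (Ntn1 and Ntn4), and also 3 antisense transcripts of Plxna4, whose symbols match the plexin pattern. Single cells of mouse dorsal cortex at postnatal day 2 had been profiled in 3 droplet libraries, 1 for each genotype.

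The control is labelled WT, while the protocol describes the control mice as carrying floxed Map2k1 and Map2k2. Both mutants are double conditional knockouts of the same genes, which encode MEK1 and MEK2, the kinases that activate ERK. In the Emx1-Cre mutant, Cre is driven by Emx1, expressed in progenitors of the dorsal cortex and their descendants. In the hGFAP-Cre mutant, Cre is driven by the human GFAP promoter, active later, in radial glia. Mice of every genotype received FlashTag, a dye that labels cells dividing at the ventricle, into the lateral ventricle on embryonic day 18, before cells positive for tdTomato were taken by sorting. The protocol names neither the allele carrying tdTomato nor the number of pups per library. With 1 library per genotype there was no replicate, so no difference between genotypes could be tested and no p-value is given. Values of all 3 libraries stand side by side. Both mutants were compared with the same control library, so the comparisons are not independent.

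Class 3 semaphorins are secreted and act through neuropilins, which bind them, and class A plexins, which signal. Most other semaphorins are membrane-bound and act on plexins directly. Slits act on Robo receptors, and netrins act on Dcc, which mediates attraction, and on Unc5 receptors, which mediate repulsion. Ephrins are membrane-anchored ligands of the Eph receptor tyrosine kinases and signal at contacts between cells in both directions. In the developing cortex these families act in radial migration, layering, callosal and corticofugal axon growth, and vessel formation.

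The promoters of 5 members named in the results are shown because ETS factors, which ERK phosphorylates, bind DNA around the letters GGAAG. Robo4, Sema3d and Ephb6 stood out in the control for 1 cell class each. Efnb1 and Epha4 were lower in 3 or more clusters of a mutant. Each stretch runs 250 bases before to 50 bases after the gene's start in RefSeq (GRCm38.p6), with matches to GGAAG on either strand (CTTCC on the other) in capitals. The stretches lie at chr9:37401722-37402021 (Robo4, plus strand), chr5:12382916-12383215 (Sema3d, plus strand), chr6:41605261-41605560 (Ephb6, plus strand), chrX:99135811-99136110 (Efnb1, plus strand) and chr1:77515039-77515338 (Epha4, minus strand).
Robo4: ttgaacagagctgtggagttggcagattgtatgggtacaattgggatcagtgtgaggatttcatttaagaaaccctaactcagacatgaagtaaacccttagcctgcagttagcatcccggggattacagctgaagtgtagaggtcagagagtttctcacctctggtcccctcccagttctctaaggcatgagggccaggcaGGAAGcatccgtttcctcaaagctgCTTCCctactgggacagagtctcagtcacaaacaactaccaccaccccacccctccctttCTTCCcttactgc
Sema3d: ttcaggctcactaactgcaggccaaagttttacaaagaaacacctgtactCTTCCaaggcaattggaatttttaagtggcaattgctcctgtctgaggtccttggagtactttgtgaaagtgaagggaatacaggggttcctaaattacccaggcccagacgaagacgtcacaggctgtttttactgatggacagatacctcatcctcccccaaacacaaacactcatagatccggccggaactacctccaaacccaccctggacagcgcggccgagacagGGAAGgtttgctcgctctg
Ephb6: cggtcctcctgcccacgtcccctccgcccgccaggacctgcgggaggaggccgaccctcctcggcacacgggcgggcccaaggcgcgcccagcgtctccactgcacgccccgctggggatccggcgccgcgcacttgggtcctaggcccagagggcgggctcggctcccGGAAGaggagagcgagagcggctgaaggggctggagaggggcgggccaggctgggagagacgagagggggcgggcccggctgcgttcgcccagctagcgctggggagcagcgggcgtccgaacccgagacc
Efnb1: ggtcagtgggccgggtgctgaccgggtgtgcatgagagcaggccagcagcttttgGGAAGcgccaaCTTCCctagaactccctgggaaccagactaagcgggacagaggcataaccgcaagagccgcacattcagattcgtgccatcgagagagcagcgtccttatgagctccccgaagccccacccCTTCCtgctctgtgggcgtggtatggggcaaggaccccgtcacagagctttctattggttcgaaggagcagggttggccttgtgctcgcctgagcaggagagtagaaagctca
Epha4: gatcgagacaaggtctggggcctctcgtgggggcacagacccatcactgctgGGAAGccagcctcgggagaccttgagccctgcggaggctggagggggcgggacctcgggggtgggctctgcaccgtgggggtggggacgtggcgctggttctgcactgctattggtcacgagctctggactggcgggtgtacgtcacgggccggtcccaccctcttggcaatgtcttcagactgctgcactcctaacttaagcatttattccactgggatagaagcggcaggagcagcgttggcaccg
These promoters held 3 matches in Robo4, 2 in Sema3d, 1 in Ephb6, 3 in Efnb1 and 1 in Epha4. They belong to 5 of the 12 members with a promoter that stood out for a class or were lower in 3 or more clusters. Of those not shown, Plxna2 held no match, and neither did a promoter of Sema6c and a promoter of Sema4d. Of 32851 promoters of the same length, 71.4% held at least 1 match. A promoter was found for 57 members, and 50 of their 73 listed promoters, or 68.5%, held a match. A match of so short a motif describes the sequence and is not a binding site.

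The libraries held 11886 (control), 13214 (Emx1-Cre) and 13139 (hGFAP-Cre) barcodes with 85480826, 84016524 and 89917586 UMIs, and 9513, 12196 and 12063 cells were kept, with medians of 6427, 4988.5 and 5318 UMIs. The lowest UMI count of a deposited barcode was 500, 2644 and 3065, so the 3 files start at unlike depths. Pairs of libraries shared 27 to 41 barcodes. Map2k1 was at 16.7, 13.9 and 16.2 CPM (UMIs of a gene scaled to a common total of its class or library) and Map2k2 at 196, 217 and 214 CPM, but a tag at the transcript's end lies outside a deleted exon and does not check the labels. Xist was at 1460, 0.163 and 0.948 CPM and the Y-linked Ddx3y at 0, 37.1 and 45.5, so the control library and both mutant libraries also differed in sex, which cannot be told apart from genotype here. Among the members discussed, Efnb1, Plxna3 and Plxnb3 are X-linked. Cells were grouped into 32 clusters without use of the guidance genes' values, and clusters were named from marker lists, so every class is called "-like". All levels are summed UMIs of a class on the CPM scale, with exact Poisson 95% intervals in brackets that cover counting error only. Where 3 levels are listed, their order is control, Emx1-Cre mutant, hGFAP-Cre mutant.

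In the control, 51 of the 70 members reached 20 CPM in at least 1 of the 9 classes with 50 or more cells. The highest class was excitatory neuron-like for 15 of them, endothelial-like for 10, upper-layer projection neuron-like for 9, astroglia-like for 5, Cajal-Retzius-like and microglia-like for 4 each, and intermediate progenitor-like and oligodendrocyte precursor-like for 2 each. None of the 51 was highest in the olfactory bulb interneuron-like class. In 7 of the 51 (13.7%), the highest class was at least 3-fold the next on a scale with 5 CPM added, against 12.9% of all genes at 20 CPM or more, so the guidance genes stood near the background in this respect. The highest of the 8 classes shared by all libraries was the same in the 3 genotypes for 30 of the 51 (58.8%), against 46.6% of all such genes. A further 11 members stayed under 10 CPM on average in every class: Epha1, Epha6, Epha8, Epha10, Robo3, Sema3b, Sema3g, Sema4a, Slit3 and the antisense transcripts Plxna4os2 and Plxna4os3.

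Among the ligands, Sema3d, a secreted semaphorin, was highest in oligodendrocyte precursor-like cells among the classes compared in the control. Unnamed cells and the classes under 50 cells are outside this ranking. It stood there at 30.4 CPM (17.7 to 48.6) in the control, 44.95 with Emx1-Cre and 36.3 with hGFAP-Cre, and at 0.782 CPM in the next class of the control, astroglia-like. Sema3c, a secreted cue made by cortical neurons, was highest in excitatory neuron-like cells in every genotype, at 471, 347 and 336 CPM. The membrane-bound Sema4d, a ligand of plexin B1, was highest in microglia-like cells, at 61.1, 29.6 and 36.7 CPM, and reached 7.14 CPM in the next class of the control. Efna1, an ephrin-A ligand, was endothelial-like, at 64.3 CPM (52.2 to 78.4) in the control and 87.0 in the hGFAP-Cre mutant, with 3.13 CPM in astroglia-like cells of the control. The Emx1-Cre library held under 50 endothelial-like cells and gives no value in that class. Ntn4, a netrin of basement membranes, was highest in astroglia-like cells among the 8 shared classes, at 40.1, 14.4 and 38.1 CPM, while ependymal-like cells, too few in the control to compare, were at 16.7 with Emx1-Cre and 41.1 CPM with hGFAP-Cre. The B ephrins Efnb2 and Efnb3 were highest in upper-layer-like cells of the control, Efnb2 at 107.5, 95.4 and 96.9 CPM, although the next class, excitatory neuron-like, was at 96.3 CPM for Efnb2. Slit2, whose product repels axons through Robo receptors, was highest in excitatory neuron-like cells of the control at 31.7 CPM, and in both mutants the highest shared class was oligodendrocyte precursor-like.

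Among the receptors, Robo4, a Robo receptor of vessels, had the sharpest pattern. It was at 135 CPM (117 to 154) in endothelial-like cells of the control and 117 (85.9 to 155) in the hGFAP-Cre mutant, against 0.106 CPM in the next class of the control. The same class was highest in both libraries for Plxnd1 (303 and 167 CPM), the plexin of Sema3e, and Ephb4 (32.8 and 27.4 CPM), an Eph receptor of veins. Nrp1, the co-receptor that also binds VEGF, was highest there in the control alone, at 333 CPM, with excitatory neuron-like cells at 319 CPM (309 to 330), within the endothelial-like interval. In the hGFAP-Cre mutant the endothelial-like level of Nrp1 was 194 CPM, below the 241 CPM of excitatory neuron-like cells. Ephb6, an Eph receptor without kinase activity, marked Cajal-Retzius-like cells, at 99.5 CPM (86.6 to 114) in the control, 48.6 with Emx1-Cre and 40.0 with hGFAP-Cre, with 24.4 CPM in the next class of the control. Robo2, a Slit receptor, was highest there in all genotypes, at 263, 234 and 218 CPM. Plxnb2 was highest in microglia-like cells among the 8 shared classes, at 237, 142 and 165 CPM, and Plxna4os1, the antisense transcript, was also highest there, at 36.2, 28.8 and 19.9 CPM. Whether counting used the strand is not stated in the sources, so its reads cannot be told apart from those of Plxna4, which was at 36.2, 20.5 and 14.1 CPM in the same cells.

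Neuronal receptors overlapped broadly. Epha5, an EphA receptor of cortical neurons, was at 944 CPM (925 to 962) in excitatory neuron-like and 578 CPM in upper-layer-like cells of the control. Unc5d, a netrin receptor of multipolar and upper-layer neurons, was at 430 CPM in excitatory neuron-like and 184 in intermediate progenitor-like cells. Epha4, an Eph receptor that binds ephrins of both classes, was nearly level between excitatory neuron-like (348 CPM) and intermediate progenitor-like cells (317 CPM) of the control, and Dcc, the attractive netrin receptor, reached only 27.2, 24.9 and 35.2 CPM in excitatory neuron-like cells, its highest class in each library.

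**Figure D1:**
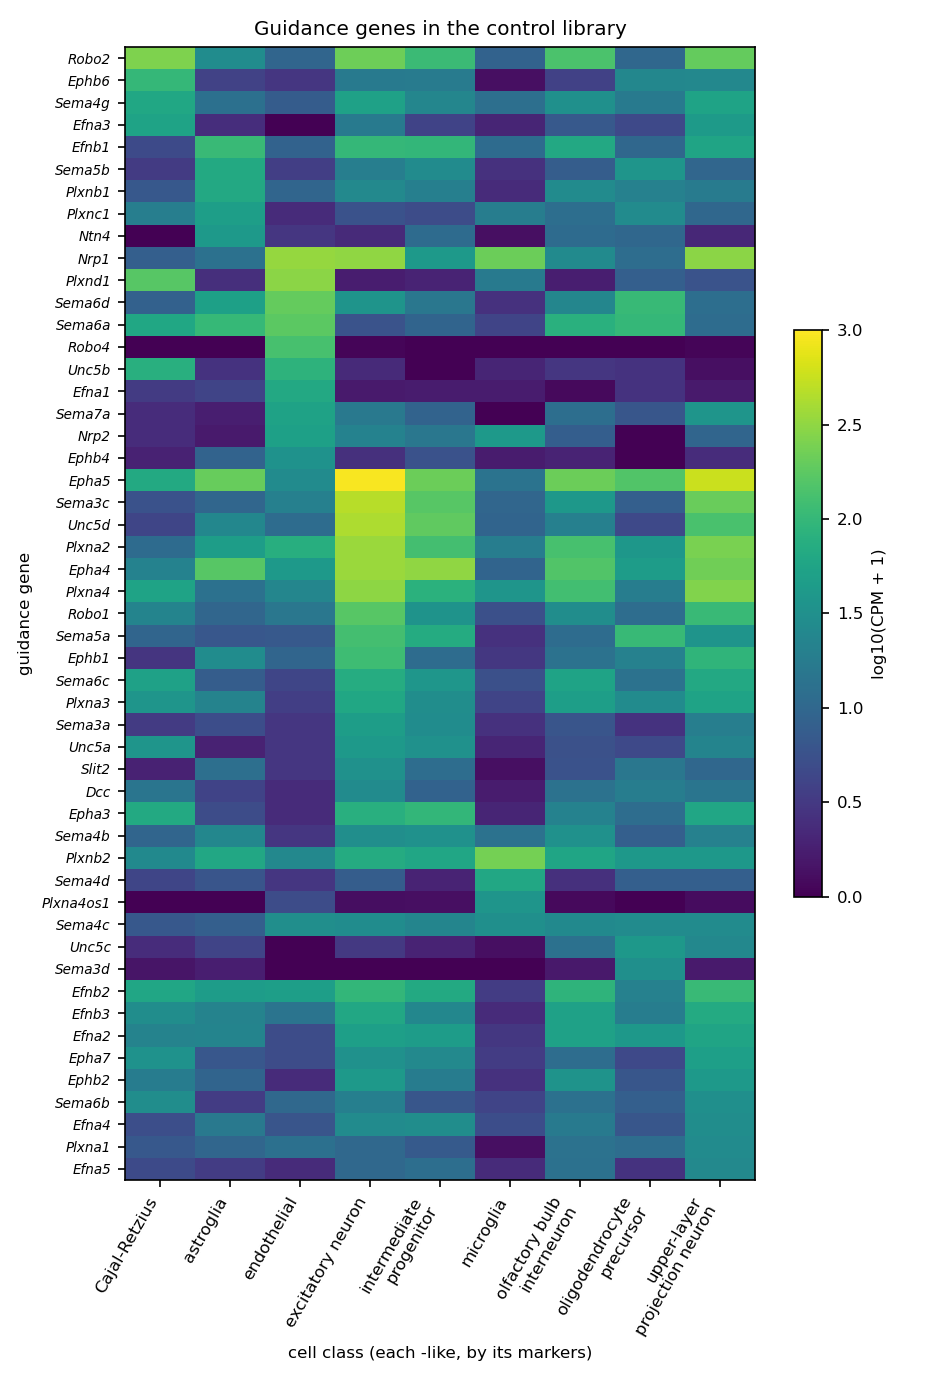
Levels in the control library of the 51 guidance genes that reached 20 CPM in a class, as log10(CPM + 1) on a colour scale, with the 9 cell classes of 50 or more cells as columns and genes ordered by their highest class. Robo4 is bright in 1 column alone, the endothelial-like class at 135 CPM, while the neuronal receptors such as Epha5 are bright in several neuronal columns.

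Relative to the control, guidance genes were more often lower than higher in both mutants. A gene was counted in a class when its mean over the 3 libraries was at least 10 CPM, and a difference of 2-fold or more, with 5 CPM added to each level, made it higher or lower. Over the 8 classes of the Emx1-Cre comparison, 41 of 238 member values (17.2%) were lower, against 6.497% of all gene values, and 14 (5.88%) were higher, against 2.53%. Over the 9 classes of the hGFAP-Cre comparison, 35 of 260 values (13.5%) were lower, against 3.63% of all, and 7 (2.69%) higher, against 2.24%. The lower values lay mostly in the 2 neuronal classes and, for Emx1-Cre, in astroglia-like cells, and the higher ones mostly in the olfactory bulb interneuron-like class. One gene can count in several classes, so these values are not independent.

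**Figure D2:**
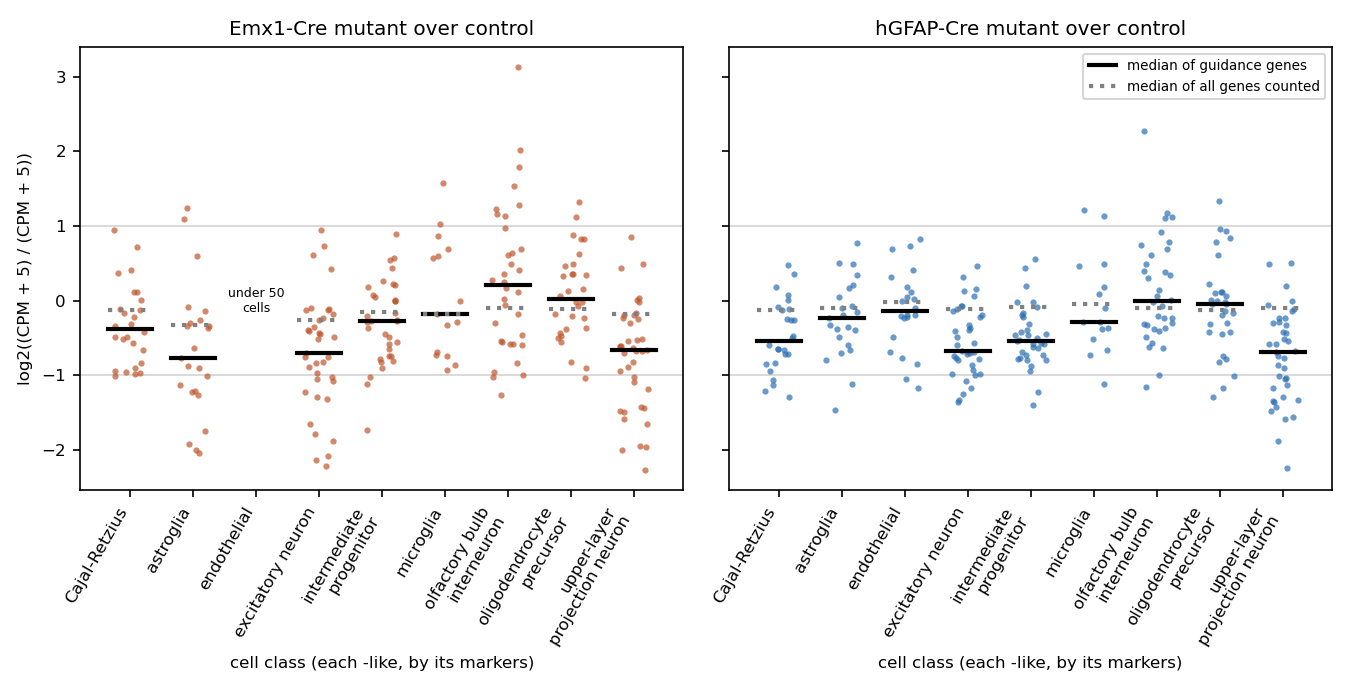
Log2 ratio of each mutant over the control, with 5 CPM added to both levels, for every guidance gene counted in a class (points), with the median of the guidance genes (solid line) and of all genes counted (dotted line); grey lines mark 2-fold. In upper-layer projection neuron-like cells the solid lines lie at -0.67 and -0.69, below the dotted lines at -0.18 and -0.10, and the highest point is Nrp1 at 3.13 in olfactory bulb interneuron-like cells of the Emx1-Cre mutant.

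In upper-layer projection neuron-like cells, 13 of 39 members counted were lower in the Emx1-Cre mutant, against 5.20% of all genes, and 15 of 39 in the hGFAP-Cre mutant, against 2.95%. None was higher, against 2.73% and 2.00% of all genes. The cells are neurons that send axons to the other hemisphere and within the cortex. Lower in both comparisons, which share the control library, were Sema3c, Sema5a, Efnb1, Plxna2, Plxna4, Nrp1, Robo1, Robo2, Unc5d, Epha3 and Ephb1. Of the ligands, Sema3c stood at 204 CPM (197 to 210) in the control, 38.4 (32.7 to 44.8) with Emx1-Cre and 39.2 (33.8 to 45.2) with hGFAP-Cre, a log2 ratio of -2.26 and -2.24. Sema5a, a transmembrane semaphorin, was at 34.5, 5.25 and 5.75 CPM, and Efnb1 at 55.8, 15.3 and 22.8 CPM. In each of these 3 genes the mutant intervals lay apart from the control's and overlapped each other.

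Of the receptors in upper-layer-like cells, Plxna2, a signalling receptor of semaphorins, was at 249 CPM (241 to 256) in the control, 60.4 (53.1 to 68.3) with Emx1-Cre and 81.5 (73.7 to 89.9) with hGFAP-Cre. Plxna4, its relative, was at 271.5 CPM in the control, 83.2 with Emx1-Cre and 98.5 with hGFAP-Cre. The Slit receptor Robo1 was at 106, 22.7 and 31.8 CPM. All 3 receptors were thus at least 2-fold lower in both mutants, with the Emx1-Cre value below the hGFAP-Cre value. For Epha4 the hGFAP-Cre mutant was the lowest, at 220.3 CPM in the control, 112 (102 to 123) with Emx1-Cre and 75.9 (68.4 to 84.1) with hGFAP-Cre. The ligands Efnb2 (107.5, 95.4 and 96.9 CPM) and Efnb3 (68.0, 68.7 and 53.4 CPM) differed little. Plxna1, a class A plexin, was at 27.0, 53.0 and 40.4 CPM, above the control in both mutants and under 2-fold on the scale used.

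This class was not made of the same clusters in the 3 libraries, and within the cluster that could be compared few differences reached 2-fold. Cluster 2, led by Cntn2, held 78.1% of the class in the control and 18.8% in the hGFAP-Cre mutant. Cluster 14, led by Ntf3 and Cav1, held 91.8% of it with Emx1-Cre and 79.3% with hGFAP-Cre, and cluster 22, led by Inhba, 20.9% in the control. Within cluster 2, 1 of 39 members counted, Unc5c, was lower in the hGFAP-Cre mutant, against 3.86% of all genes. Sema3c there was at 351 CPM in the control and 268 in the hGFAP-Cre mutant, Plxna2 at 389 and 369, Plxna4 at 348 and 221, Epha4 at 238 and 134, and Nrp1 at 483 and 282. No cluster of the class had 50 cells in both the control and the Emx1-Cre mutant, so the Emx1-Cre values have no such check. The direction of some members also turned with the clustering: Sema3c was 0.74 (log2) higher in the Emx1-Cre mutant at a coarser resolution, and Robo1 and Sema5a were 0.32 and 1.38 higher in the hGFAP-Cre mutant with each library clustered alone. Summed upper-layer markers were at 4606, 5584 and 5396 CPM in the class. Below the control in both mutants, like the lower guidance genes, were intermediate progenitor markers, at 255, 82.8 and 89.1 CPM, and cortical interneuron markers, at 128, 27.2 and 48.8 CPM, and their part was not tested.

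In excitatory neuron-like cells, named from Neurod and other general markers, 12 of 37 members counted were lower in the Emx1-Cre mutant, against 6.75% of all genes, and 5 of 37 in the hGFAP-Cre mutant, against 2.60%, with none higher, against 2.02% and 1.41%. The 5 were Efnb1, Sema5a, Plxna4, Epha5 and Unc5a. Slit2 was at 31.7 CPM (28.4 to 35.3) in the control, 3.73 (2.53 to 5.29) with Emx1-Cre and 15.1 with hGFAP-Cre. Sema5a was at 127, 30.8 and 47.3 CPM. Both ligands were thus lowest in the Emx1-Cre library. Of the receptors, Unc5d was at 430 CPM (418 to 443) in the control, 89.0 (82.7 to 95.7) with Emx1-Cre and 255 with hGFAP-Cre. Unc5a was at 40.6, 5.41 and 15.3 CPM, and Epha5 at 944, 296 and 365 CPM. The order was the same for these 3 receptors: control, then hGFAP-Cre, then Emx1-Cre. Epha4 hardly differed, at 348, 319 and 332 CPM. Nrp1 was above the control in the Emx1-Cre mutant only, at 319, 620 and 241 CPM, a difference under 2-fold.

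Again different clusters held the class. Cluster 6, led by Nos1 and Scrt2 and with Sema5a and Unc5d among its 10 leading genes, held 90.1% of it in the control. Cluster 0, led by Cck and with Nrp1 among its leading genes, held 97.0% in the Emx1-Cre mutant, and clusters 19, 0 and 6 held 48.3%, 35.1% and 16.6% in the hGFAP-Cre mutant. Within cluster 6, 1 of 38 members, Sema7a, was lower in the hGFAP-Cre mutant, against 2.13% of all genes. Epha5 there was at 999 CPM in the control and 934 in the hGFAP-Cre mutant, and Unc5d at 451 and 540. Plxna4 was at 317 and 173 CPM. Within cluster 0, 4 of 34 members were lower in the Emx1-Cre mutant (Ephb1, Plxna4, Sema4b and Sema6b), against 5.95% of all genes, and 4 of 34 in the hGFAP-Cre mutant (Efnb3, Ephb1, Sema4b and Sema6b), against 5.47%, with 75 control cells. Slit2, Unc5d and Epha5 were not among them, and the mean log2 ratio of Slit2 over the shared clusters, 0 and 19, was 0.33 in the Emx1-Cre mutant. Within cluster 19, 13 of 36 members were lower in the Emx1-Cre mutant, which had 57 cells there, against 15.7% of all genes, and 3 of 36 in the hGFAP-Cre mutant, against 4.13%. In this class the summed upper-layer markers were at 2067, 1026 and 1160 CPM, the intermediate progenitor markers at 645, 285 and 332 CPM, and the Cajal-Retzius markers at 109, 332 and 1669 CPM. The Cajal-Retzius list includes Calb2, the leading gene of cluster 19, and 4 of its 9 markers were at 0 in the hGFAP-Cre library. Its sum therefore does not show a rise of the list as a whole. The part of such differences in the guidance genes was not tested.

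**Figure D3:**
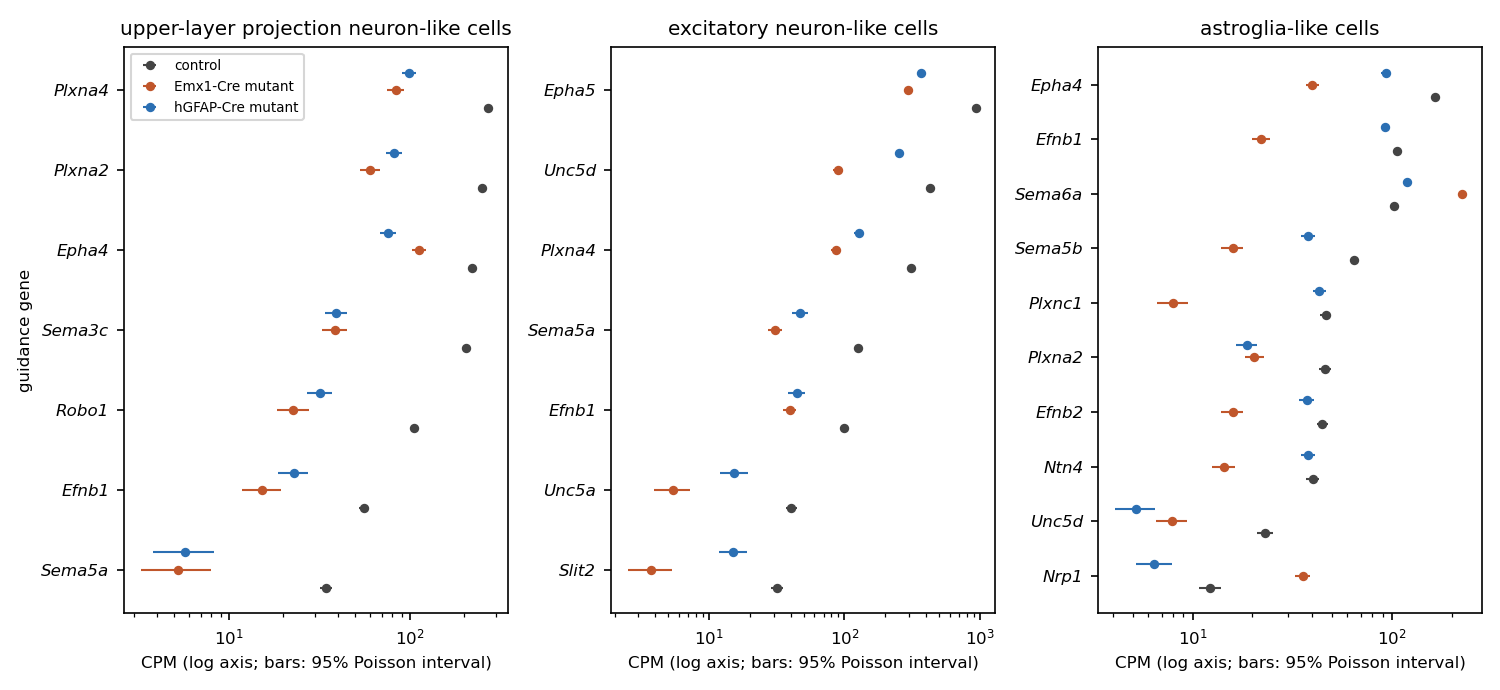
Levels of selected guidance genes in 3 classes, in CPM on a log axis with 95% Poisson intervals, for the control (grey), Emx1-Cre (orange) and hGFAP-Cre (blue) libraries. In the neuronal panels the control lies to the right of both mutants, as for Sema3c at 204, 38.4 and 39.2 CPM in upper-layer-like cells, while in astroglia-like cells the hGFAP-Cre level of Efnb1, 92.8 CPM, lies near the control's 107 and the Emx1-Cre level at 22.1.

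In astroglia-like cells, 9 of 23 members counted were lower in the Emx1-Cre mutant, against 10.4% of all genes, and 2 of 23 in the hGFAP-Cre mutant, against 4.77%. In the Emx1-Cre mutant 2 were higher, against 2.51%, and none in the hGFAP-Cre mutant, against 3.53%. Of the ligands, Efnb1 was at 107 CPM (102 to 111) in the control, 22.1 (19.9 to 24.6) with Emx1-Cre and 92.8 (87.9 to 97.9) with hGFAP-Cre. Sema5b, a transmembrane semaphorin of progenitors, was at 65.0, 15.9 and 38.1 CPM, and Ntn4 at 40.1, 14.4 and 38.1 CPM. Sema6a, a transmembrane ligand of plexins A2 and A4, had the opposite direction, at 102 CPM (97.9 to 107) in the control, 225 (217 to 232) with Emx1-Cre and 119 with hGFAP-Cre. Efnb2 was at 44.9, 15.9 and 37.4 CPM. The ligands therefore split, with these 4 lower and Sema6a higher in the Emx1-Cre library. Of the receptors, Epha4 was at 165, 40.0 and 93.1 CPM, and Plxnc1, the receptor of Sema7a, at 46.7, 7.98 and 43.4 CPM. Plxna2 was at 46.3, 20.4 and 18.7 CPM and Unc5d at 23.2, 7.85 and 5.20 CPM. These last 2 were the receptors lower in both mutants. Nrp1 was at 12.3, 35.7 and 6.43 CPM, and the summed endothelial markers in these cells were at 4.54, 27.2 and 2.33 CPM, a shared course whose part in the Nrp1 value was not tested. Summed markers of multipotent progenitors were at 820, 320 and 186 CPM in the class, and their part in the lower members was not tested either.

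The astroglia-like class, too, was held by different clusters: cluster 10, led by Slco1c1 and Hopx, with 71.4% in the control, cluster 11, led by Has2 and Tagln, with 66.0% in the Emx1-Cre, and cluster 3 with 90.2% in the hGFAP-Cre mutant. Cluster 12, cycling cells by its leading genes, was present in all 3. Within it, 5 of 18 members were lower in the Emx1-Cre mutant, against 6.11% of all genes, and 6 of 18 in the hGFAP-Cre mutant, against 5.06%. The 4 lower in both were Efnb1, Sema5b, Epha4 and Plxna2. Efnb1 was at 53.0 CPM (48.1 to 58.3) in the control, 20.6 (17.4 to 24.3) with Emx1-Cre and 21.7 (15.1 to 30.2) with hGFAP-Cre. Epha4 was at 92.9, 40.8 and 41.5 CPM. For these 2 genes the mutants thus had like levels in cycling cells, below the control, with overlapping intervals. Sema6a was at 82.7, 201 and 76.2 CPM there. Within cluster 11, none of 21 members was lower in either mutant, against 3.90% and 5.87% of all genes, with 50 control cells, and Sema6a was at 207 in the control and 244 CPM in the Emx1-Cre mutant.

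In intermediate progenitor-like cells, which divide to make excitatory neurons, 3 of 34 members were lower in the Emx1-Cre mutant, against 2.92% of all genes, and 2 of 34 in the hGFAP-Cre mutant, against 1.94%, with none higher, against 1.52% and 1.72%. Epha4 was lower in both, at 317 CPM (297 to 338) in the control, 144 (135 to 153) with Emx1-Cre and 118 (113 to 123) with hGFAP-Cre. Sema5b was at 27.1, 4.67 and 15.7 CPM, and Sema6c, a transmembrane semaphorin, at 36.9, 17.4 and 12.9 CPM. The dividing cells of cluster 20, led by Cenpa and Ube2c, differed more. In them 11 of 28 members were lower in the Emx1-Cre mutant, against 7.94% of all genes, and 12 of 28 in the hGFAP-Cre mutant, against 7.26%. Plxna4 was at 93.4 CPM (73.0 to 118) there in the control, 20.7 with Emx1-Cre and 10.7 with hGFAP-Cre. Robo2 was at 119, 29.2 and 32.2 CPM, and Unc5d at 158, 54.5 and 35.3 CPM. Each of these receptors was lower in both mutants with intervals apart from the control's, which had 72 cells. In clusters 4 and 8, the other shared progenitor clusters, 4 and 5 of 35 members were lower in the Emx1-Cre mutant, against 3.67% and 8.40% of all genes, and 2 and 5 of 35 in the hGFAP-Cre mutant, against 2.26% and 4.22%.

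Clusters 13 and 1, which have no class name, could be compared as well. Cluster 13, led by Dbx2, Olig1, Olig2 and Egfr, held 954 control and 192 hGFAP-Cre cells. Within it, 5 of 21 members were lower in the hGFAP-Cre mutant, against 7.72% of all genes. The receptors among them were Epha4, at 81.9 CPM in the control and 34.6 in the mutant, and Plxnb1, the receptor of Sema4d, at 57.2 and 21.2 CPM. The ligands were Sema4b (28.6 and 10.3 CPM), Sema6a (99.5 and 37.6 CPM) and Sema6d (60.8 and 26.7 CPM). In cluster 1, which has Unc5d and Sema5a among its leading genes, 2 of 35 members (Efnb3 and Epha7) were lower in the Emx1-Cre mutant, against 5.62% of all genes, and 0 of 35 in the hGFAP-Cre mutant, against 1.73%, with 247, 136 and 2018 cells.

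**Figure D4:**
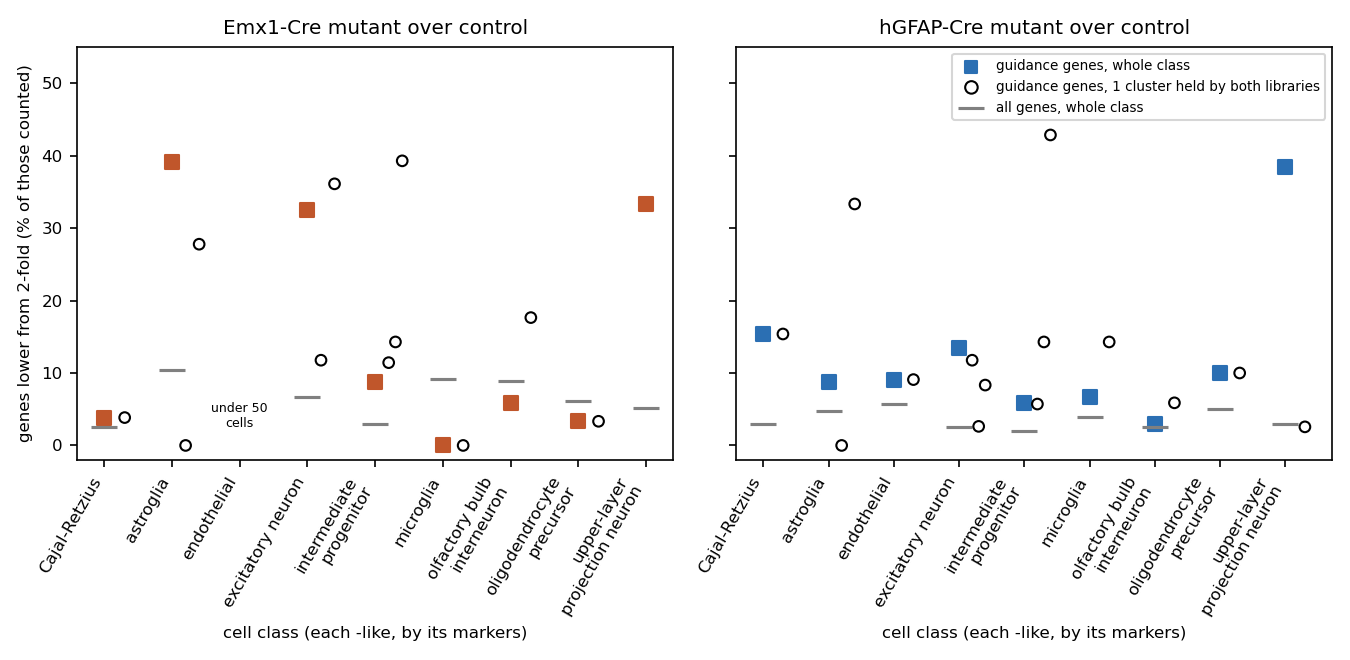
Percent of counted genes that were lower from 2-fold in each mutant, by cell class: guidance genes over the whole class (squares), guidance genes within each cluster held by both libraries with 50 or more cells (open circles), and all genes over the whole class (grey dashes). For upper-layer projection neuron-like cells of the hGFAP-Cre mutant the square is at 38.5% and the circle for cluster 2 at 2.56%, while for intermediate progenitor-like cells the circle for the dividing cluster 20 is at 42.9%, far above the square at 5.88%.

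In the olfactory bulb interneuron-like class, defined by Dlx and Gad genes, the direction over the whole class was the other way. Here 8 of 34 members were higher in the Emx1-Cre mutant, against 3.10% of all genes, and 4 of 34 in the hGFAP-Cre mutant, against 1.55%. Lower members were 2, against 8.90% of all genes, and 1, against 2.60%. Of the ligands, Sema3c was at 38.6 CPM (33.4 to 44.4) in the control, 146 (112 to 187) with Emx1-Cre and 77.7 with hGFAP-Cre. Of the receptors, Nrp1 was at 25.9 CPM (21.7 to 30.8), 266 (219 to 319) and 64.9 (56.0 to 74.7). Unc5d was at 19.4, 94.0 and 113 CPM. Nrp1 and Unc5d were the members higher in both mutants. Robo1 was at 28.3, 91.7 and 48.7 CPM, and Sema6a was below the control in both, at 79.6, 37.6 and 33.1 CPM. The Emx1-Cre library had 101 cells of the class, against 951 and 559. Within cluster 9, which holds most of the class, 5 of 34 members were higher and 6 lower in the Emx1-Cre mutant, against 2.67% and 7.59% of all genes. In the hGFAP-Cre mutant 4 were higher and 2 lower, against 1.62% and 2.46%. The direction in the Emx1-Cre mutant was thus mixed within this cluster, with a median log2 ratio of -0.017. Nrp1 there was at 27.7, 264 and 72.4 CPM. Summed excitatory neuron markers in the class were at 2273, 3373 and 2667 CPM, and the olfactory bulb interneuron markers themselves at 3789, 1584 and 2302 CPM. Cortical interneuron markers were at 805, 2280 and 2431 CPM, above the olfactory bulb markers in both mutants, so there the marker levels go against the class name. The part of these markers in the guidance gene values was not tested.

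Cajal-Retzius-like cells formed a single cluster, so their class and cluster values are the same. They are early neurons of the cortical surface that secrete reelin. Of 26 members, 1 was lower in the Emx1-Cre mutant, against 2.51% of all genes, and 4 in the hGFAP-Cre mutant, against 3.03%, with none higher, against 0.899% and 0.747%. The 1 was Plxna4, at 54.0 CPM (44.6 to 64.8), 24.4 (21.3 to 27.8) and 23.4 (18.5 to 29.1), and it was among the 4. The others were Ephb6, Sema6c, at 51.2, 25.2 and 20.7 CPM, and Epha4, at 20.2, 12.03 and 5.26 CPM. Ephb6 and Sema6c were just short of 2-fold in the Emx1-Cre mutant on the scale with 5 CPM added, though over 2-fold in plain CPM. Plxnd1 was at 165, 90.8 and 104 CPM and Unc5b, the netrin receptor shared with vessels, at 77.0, 37.4 and 37.7 CPM. Median UMIs per cell were 19205, 6097 and 8936.

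In oligodendrocyte precursor-like cells the counts lay near the background. Of 30 members, 2 were higher and 1 lower in the Emx1-Cre mutant, against 3.68% and 6.15% of all genes, and 1 was higher and 3 lower in the hGFAP-Cre mutant, against 2.88% and 5.02%. The control had 65 such cells. Plxnb3, a plexin of the oligodendrocyte lineage, was at 12.5 CPM (5.03 to 25.8), 14.1 and 39.1 (30.6 to 49.2). Ephb6 was lower in both mutants, at 23.2, 8.81 and 6.51 CPM, with the Emx1-Cre interval overlapping the control's. In endothelial-like cells, 2 of 22 members, Plxna4 and Sema7a, were lower in the hGFAP-Cre mutant, against 5.76% of all genes, both with overlapping intervals, and none was higher, against 3.45%.

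Microglia-like cells do not descend from Emx1- or GFAP-expressing progenitors. Of 15 members, 2 were higher and 0 lower in the Emx1-Cre mutant, against 3.79% and 9.19% of all genes, and 2 were higher and 1 lower in the hGFAP-Cre mutant, against 2.75% and 3.89%. Epha5 was at 12.97 CPM (9.18 to 17.8) in the control, 48.6 (37.4 to 62.0) with Emx1-Cre and 36.7 with hGFAP-Cre. Unc5d was at 8.19, 18.97 and 24.0 CPM, and Epha4 at 8.19, 22.005 and 13.1. All 3 are high in neurons, and the summed excitatory neuron markers in these cells were at 136, 352 and 212 CPM. Border macrophage markers were at 171, 796 and 259 CPM. The part of either in these values was not tested. Cluster 23 held 98.8%, 34.2% and 71.8% of the class. Within it, 4 of 14 members (Epha4, Epha5, Sema3c and Unc5d) were higher and 0 lower in the Emx1-Cre mutant, against 3.60% and 7.87% of all genes. In the hGFAP-Cre mutant 0 were higher and 2 lower (Plxna4 and Plxnd1), against 1.78% and 3.56%, so the members higher over the class were under 2-fold within the cluster.

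Over all clusters with 50 or more cells in both libraries, 15.03% of 346 member values in 12 clusters were lower in the Emx1-Cre mutant, against 6.76% of all gene values, and 11.2% of 466 values in 16 clusters in the hGFAP-Cre mutant, against 4.35%. Higher values were 4.34% against 2.87% and 1.29% against 2.50%. Clusters 19 and 20 held 24 of the 52 lower values of the Emx1-Cre mutant. Without them 28 of 282 values (9.93%) were lower, against 5.77% of all, and 9.204% against 4.16% in the hGFAP-Cre mutant. Plxna4, the plexin that transduces Sema3a and Sema6a signals, was below the control in 10 of 10 clusters where it was counted in the Emx1-Cre mutant and 13 of 13 in the hGFAP-Cre mutant. It was lower by 2-fold in 4 and 5 of them, with median log2 ratios of -0.85 and -0.86. Sema6c was below the control in 7 of 7 and 9 of 9 clusters, with medians of -0.98 and -0.96. Efnb1 was below it in 9 of 9 and 12 of 12, with medians of -0.92 and -0.68. Efnb1 is X-linked. All 3 genes were thus below the control in both mutants in every cluster where they were counted. So was Sema5b, in 6 of 6 and 8 of 8 clusters, and so were some members counted in fewer clusters. The share of all genes with this property was not computed. The median log2 ratio of all genes was itself negative in every class compared. Epha4 was below the control in 9 of 12 and 14 of 16 clusters and lower by 2-fold in 3 and 6, and it was higher by 2-fold in 1, the microglia-like cluster 23 of the Emx1-Cre mutant. The clusters of a mutant share 1 pair of libraries, so these counts do not stand for replicates.

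Guidance genes are long: the median span of the 70 was 45.1 kb, against 13.9 kb over all genes with a span, and 32 of them spanned 100 kb or more. In all but 2 of the classes compared, genes of 100 kb or more were more often lower than shorter ones in both mutants. The exceptions were olfactory bulb interneuron-like cells, with 6.24% of long and 9.34% of shorter genes lower in the Emx1-Cre and 2.23% and 2.65% in the hGFAP-Cre mutant, and endothelial-like cells, with 5.67% and 5.76% in the hGFAP-Cre mutant. In upper-layer-like cells, 10.1% of all genes of 100 kb or more and 4.34% of shorter ones were lower in the Emx1-Cre mutant, and 5.85% and 2.43% in the hGFAP-Cre mutant. Among members of that length, 10 of 19 and 12 of 19 were lower. In excitatory neuron-like cells, 8 of 19 long members were lower in the Emx1-Cre mutant, against 14.6% of all long genes, and 3 of 19 in the hGFAP-Cre mutant, against 4.50%. In astroglia-like cells of the Emx1-Cre mutant, 6 of 12 long members were lower, against 19.8%. In olfactory bulb interneuron-like cells of the Emx1-Cre mutant, all 8 higher members were long, and 6.06% of all long genes were higher, against 2.61% of shorter ones.

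Other genes of the pathway were taken from 3 lists, and their counts stand beside 6.497% and 3.63% lower and 2.53% and 2.24% higher among all gene values of the 2 comparisons. Of the cytoskeletal effectors, which include the collapsin response mediators that pass on Sema3a signals, 12 of 122 values (9.84%) were lower and 1 higher in the Emx1-Cre mutant, and 8 of 136 (5.88%) lower and 0 higher in the hGFAP-Cre mutant. Dpysl3, such a mediator, was at 181, 69.9 and 53.7 CPM in astroglia-like cells, and Dpysl4 at 39.4, 6.83 and 50.9 CPM, below the control in the Emx1-Cre mutant and above it in the hGFAP-Cre mutant. Of the adaptors and kinases, 14 of 15 listed genes were in the files, and 4 of 98 and 3 of 110 values were lower, with none higher. Bcar1, an adaptor of netrin and integrin signalling, was at 48.6, 12.03 and 28.8 CPM in excitatory neuron-like cells. Of the other cues and co-receptors, 8 of 109 values (7.34%) were lower and 10 (9.17%) higher in the Emx1-Cre mutant, and 9 of 119 (7.56%) lower and 6 (5.04%) higher in the hGFAP-Cre mutant. The higher values were thus a larger share here than among all genes. Cntn2, an adhesion molecule of growing axons, was at 303, 53.9 and 86.8 CPM in upper-layer-like cells, a class where it also leads cluster 2. The chemokine receptor Cxcr4 was at 6.48, 130 and 71.6 CPM in microglia-like cells, and its ligand Cxcl12 was at 336 CPM in endothelial-like cells of the control and 57.2 in the hGFAP-Cre mutant.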

How the data were processed

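Single-cell UMI counts were deposited by the authors as raw counts per gene and barcode, made with Cell Ranger 5.0.0 per the file headers and with genome build mm10 per the submitters' processing notes. Cells with at least 1000 genes and under 10% mitochondrial counts were kept, and doublets called by Scrublet in scanpy 1.11.5 (4.53%, 7.61% and 8.16% of the control, Emx1-Cre and hGFAP-Cre barcodes) were removed. Cells were clustered from 2000 variable genes, guidance genes left out, with 30 components, 15 neighbours and Leiden resolution 1 (leidenalg 0.10.2, igraph 0.11.9). Further software was scipy 1.17.1, numpy 2.4.6, pandas 2.3.3, matplotlib 3.10.9 and Python 3.11.15. No batch correction was applied. A cluster took the class with most markers raised (2-fold over other cells, in at least 25% of the cluster), with at least 3. Of 32 clusters, those failing this, or led by another class's markers, or of low UMI count, stayed unnamed. Astrocyte and radial glia names were joined as astroglia after the clusters had been seen.

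Counts were summed by class and library and given as CPM. Genes are named where they reached 20 CPM in a control class, in full from 3-fold over the next class, or were among the 6 highest or 6 lowest members 2-fold different with intervals apart, and effectors where they had the 2 largest differences of their list. The counts of a further list of effectors are not reported here. Members, lists and settings were chosen with earlier results of these data known, and single genes discussed within clusters were chosen after their values were seen. On simulated counts, 3-fold changes were recovered for 100 of 100 higher and 99 of 100 lower genes in the astroglia-like class (8536 genes). In the oligodendrocyte precursor-like class (8585 genes) they were recovered for 95 and 89, and 0.885% of unchanged genes were called there. Both simulated sides were drawn from the control profile of the class with counting error alone. Differences in cluster make-up, sex or library were not simulated, so these figures do not give the error of the calls reported here. In all, 16 settings were tried, and the use of shared clusters alone, the omission of clusters 19 and 20 and the split by gene span were added after the data had been seen. Gene spans are from the GENCODE annotation vM21 and promoters from RefSeq.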

Additional observations from a re-analysis of the deposited data

Results flagged for a closer look

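Some guidance genes were at least 2-fold higher in 1 class and at least 2-fold lower in another class of the same mutant. With 1 library per genotype none of these differences between classes was tested, and the value given is the gap between the 2 log2 ratios. In the Emx1-Cre mutant, 6 genes were higher in olfactory bulb interneuron-like cells and lower in excitatory or upper-layer-like neurons. Nrp1 had the widest gap, 4.56, from 3.13 in the interneuron-like to -1.43 in the upper-layer-like class. For Sema3c it was 4.05 (1.79 and -2.26) and for Robo1 3.54 (1.54 and -2.003), both against upper-layer-like cells. Against excitatory neuron-like cells it was 4.23 for Unc5d (2.02 and -2.21), 3.36 for Slit2 (1.29 and -2.07) and 2.30 for Sema3a (1.23 and -1.07).

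In the hGFAP-Cre mutant, the gap between interneuron-like and upper-layer-like cells was 2.98 for Sema5a (1.11 and -1.88), 2.48 for Ephb1 (1.12 and -1.36) and 2.34 for Nrp1 (1.17 and -1.16). For Unc5d it was 3.73, between 2.27 in interneuron-like and -1.47 in astroglia-like cells. Microglia-like cells gave the higher value for Epha5 in both mutants, with gaps to excitatory neuron-like cells of 3.23 in the Emx1-Cre (1.58 and -1.66) and 2.57 in the hGFAP-Cre mutant (1.22 and -1.36). Epha4 in the Emx1-Cre mutant had a gap of 2.95 between microglia-like (1.03) and astroglia-like cells (-1.92).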

How the results depend on the processing

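No paired analysis was possible because each genotype has 1 library and the labels give no replicate numbers. The share of members with the same highest class stayed within 1.5 times 58.8% under every setting, though thresholds, pseudocount and centring cannot alter it. Of 911 single-gene values recomputed, 666 stayed within the counting interval of the value reported, 237 moved and 8 turned direction. The 666 include 62 values at the 1.5-fold threshold and 62 for genes from 1 CPM, settings that cannot change a ratio. The counts of lower members were 9 and 2 in astroglia-like, 12 and 5 in excitatory neuron-like and 13 and 15 in upper-layer-like cells (Emx1-Cre, then hGFAP-Cre), and of higher members 8 and 4 in interneuron-like cells. Over all effector lists, 6.83% and 4.52% of values were lower and 3.64% and 2.05% higher. Only counts that changed by more than 1.5 times from this main setting are listed below. They are for classes and directions where the member share was above that of all genes in the main setting. Of the 39 counts below other than those at 1.5-fold, 36 were a larger share of members than of all genes, whose share was 0.675% to 6.63%. The exceptions were the 3 counts of 0. With the counts so chosen, the 36 do not measure how settings in general behave. Where the count was 1, that member alone was 2.94% to 4.35% of those counted, so small counts could hardly fall below the share of all genes. The settings also share cells and genes, so the 36 are not independent. With cells of at least 2000 genes they were 5 and 2 in excitatory neuron-like, 5 and 5 in upper-layer-like and 7 (hGFAP-Cre) in interneuron-like cells, where Emx1-Cre gave no value, and 5.44% of hGFAP-Cre member values were higher. With a 1.5-fold threshold they were 6 (astroglia-like, hGFAP-Cre), 19 and 20 (excitatory neuron-like), 24 (upper-layer-like, Emx1-Cre) and 9 (interneuron-like, hGFAP-Cre), against 15.8%, 24.96%, 13.9%, 21.1% and 6.73% of all genes, with 37.0% and 35% of member values lower and 13.9% and 8.08% higher, and 22.1% and 15.4% of effector values lower and 9.11% and 6.16% higher. Centring each class on its median left 4 in astroglia-like cells and 10.5% of values lower in the Emx1-Cre mutant. With doublets kept, they were 0 (astroglia-like) and 2 (excitatory neuron-like) in the hGFAP-Cre mutant and 4 and 1 (interneuron-like), with 1.78% of hGFAP-Cre member values and 2.37% of Emx1-Cre effector values higher. Weighting cells alike gave 5 and 2 in interneuron-like cells. Counting genes from 1 CPM gave 11.5% and 8.28% lower. Clustering each library alone gave 8 in excitatory neuron-like and 5 in upper-layer-like cells of the hGFAP-Cre mutant, with 6.01% higher, and no Emx1-Cre value for excitatory neuron-like cells. With members among the variable genes they were 2 (excitatory neuron-like, hGFAP-Cre), 5 (interneuron-like, Emx1-Cre) and 8 and 5 (upper-layer-like), with 3.85% of Emx1-Cre values higher. Under 5% mitochondrial counts gave 1 (astroglia-like) and 2 (excitatory neuron-like) in the hGFAP-Cre, and 5 (interneuron-like) and 7 (upper-layer-like) in the Emx1-Cre mutant. Using shared clusters alone gave 1 and 1 in astroglia-like, 5 and 0 in excitatory neuron-like and 2 (hGFAP-Cre) in upper-layer-like cells, with no Emx1-Cre value in the last. In astroglia-like cells these were 4.35% of members against 3.28% of all genes and 4.35% against 3.40%. In excitatory neuron-like cells they were 13.5% against 6.63% and 0% against 1.62%, and in upper-layer-like cells 5.13% against 4.29%. Apart from the 13.5%, the member shares lay near or below those of all genes. That setting took the mean log2 ratio over the shared clusters of a class, each weighted alike, and not summed counts. A pseudocount of 1 gave 10 in excitatory neuron-like cells of the hGFAP-Cre mutant, with 4.62% of its member values higher and 6.98% of its effector values lower. A pseudocount of 20 gave 4 and 0 (astroglia-like), 3 (excitatory neuron-like, hGFAP-Cre) and 5 and 1 (interneuron-like), with 9.66% and 5.38% lower and 2.52% and 0.385% higher, and for effectors 3.64% and 2.26% lower and 0.683% and 1.03% higher. Resolution 0.5 gave 7 and 3 (excitatory neuron-like), 5 (interneuron-like, Emx1-Cre) and 8 and 6 (upper-layer-like), with 2.30% of Emx1-Cre effector values higher, and resolution 2 gave 4 (upper-layer-like, hGFAP-Cre). The direction turned for Sema3c in upper-layer-like cells of the Emx1-Cre mutant (0.58 with at least 2000 genes, 0.74 at resolution 0.5) and of the hGFAP-Cre mutant (0.011 at resolution 0.5, 0.77 clustered alone), for Sema5a there in the hGFAP-Cre mutant (0.32 at resolution 2, 1.38 clustered alone), for Robo1 (0.32 clustered alone), and for Slit2 in excitatory neuron-like cells of the Emx1-Cre mutant (0.33 in shared clusters). The causes were not tested. Depth limits the small classes most, and the oligodendrocyte precursor-like class of the control had 65 cells.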

Other observations

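Mural-like, ependymal-like and deep-layer-like cells were under 50 in the control and so enter no comparison with it. In mural-like cells, named from Rgs5, Pdgfrb, Kcnj8, Abcc9 and Vtn, Sema6d was at 179 CPM (154 to 207) with Emx1-Cre and 365 CPM (305 to 433) with hGFAP-Cre. Unc5b was at 55.9 and 112 CPM, and Ntn1, the founding netrin, at 18.6 and 50.5 CPM there. Summed fibroblast markers in these cells were at 2257 and 1422.5 CPM, beside 8220 and 12735 CPM for mural markers. The part of fibroblast-like cells in these values was not tested. In ependymal-like cells, which line the ventricle, Plxnb2 was at 169 and 169.9 CPM, Slit2 at 32.1 and 49.1 CPM, and Ntn4 at 16.7 and 41.1 CPM. In deep-layer-like neurons, which send axons out of the cortex, Epha5 was at 543 and 447 CPM, Robo2 at 142 and 100.3 CPM, and Sema3e, the ligand of Plxnd1, at 17.0 and 5.72 CPM.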
